A study of Mus musculus with 6 samples.

Results

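The genes described here are 9 genes of metallothioneins and of zinc, manganese and copper transport, Mt1, Mt2, Slc30a1, Slc30a10, Slc39a4, Slc39a8, Slc39a14, Cp and Atp7b. They were chosen by symbol from the 53599 gene symbols of the count table, and all 9 symbols were found there. The libraries were RNA-seq of mouse hepatocytes in 2 groups of 3, with 1 library per animal as the study describes it. Control animals, labelled WT, received an adeno-associated virus with Cre recombinase alone behind the TBG promoter (empty vector, EV). The other animals received AAV8-TBG-HA-Sox4-P2A-Cre, which carries HA-tagged mouse Sox4, a transcription factor of the SOX family, ahead of Cre. The methods describe the 2 vectors on different plasmid backbones, so Sox4 need not be their only difference. The TBG promoter is active in hepatocytes, Cre was therefore delivered in both groups, and the study's methods name male Rosa-LSL-Cas9-EGFP mice on a C57BL/6J background, so that Cre also switches on Cas9 and EGFP in both. The labels do not state an age, and the methods describe injection at a few weeks of age. Cells were collected 4 days after injection with liberase and enriched over Percoll, a density medium.

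Metallothioneins are small cysteine-rich proteins that bind zinc and copper in the cytosol, and their genes are classic targets of the zinc-sensing factor MTF1. Exporters of the SLC30 (ZnT) family move zinc or manganese out of the cytosol, importers of the SLC39 (ZIP) family move these metals in, and the liver is a main site of this traffic. In hepatocytes the copper ATPase ATP7B loads copper onto ceruloplasmin, the main copper protein of plasma, and sends excess copper to bile.

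Total counts were 15090629 to 16249382 in the EV libraries and 16679195 to 16964860 in the Sox4 libraries. Sox4 itself had 2, 0 and 3 counts in EV 1, 2 and 3, and 21697, 15097 and 11816 in Sox4 1, 2 and 3. Levels below are CPM (reads of a gene scaled to a library of 1e+06) on library sizes scaled by the trimmed mean of M-values (TMM), and a change is the log2 fold change, Sox4 minus EV, from edgeR's quasi-likelihood test with p adjusted over 12691 genes. The SE given with it is computed from the spread of log2 CPM within each group. Of the hepatocyte markers examined, Alb had 1097697 to 1440613 counts in every library. The symbol Tf, also on that list, was absent from the count table, so it gave no measurement. The other 9 of the 10 listed symbols were found there. The sum of the hepatocyte markers ranged from 135000 to 160000 CPM in the EV libraries and from 101000 to 115000 CPM in the Sox4 libraries on the TMM scale. Per 1e+06 total counts the groups overlapped, with 116000 to 135000 in EV and 119000 to 136000 in Sox4. Of the 9 markers tested, 5 were lower with TMM, against 2 lower and 1 higher with library size alone. Over all 12691 genes tested, 26.0% were lower with TMM, and 1630 were lower and 6464 higher with library size alone. In bulk samples such as these, fewer cells of a type and less RNA per cell cannot be told apart.

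The binding site of MTF1, the metal response element (MRE), was looked for in the promoters of the members, since it is the known entry point of zinc to these genes. Promoter windows of RefSeq (GRCm38.p6, 250 bases before to 50 after an annotated start) were matched for 7 of the 9 members. The windows of the best known MTF1 targets Mt1 and Slc30a1 are shown with those of Slc30a10 and Atp7b, the members with the largest changes below. Capitals mark the MRE core, TGCACNC or TGCGCNC on either strand, and all are written 5′ to 3′ on the strand of the gene.
Mt1, chr8:94178839-94179138, plus strand: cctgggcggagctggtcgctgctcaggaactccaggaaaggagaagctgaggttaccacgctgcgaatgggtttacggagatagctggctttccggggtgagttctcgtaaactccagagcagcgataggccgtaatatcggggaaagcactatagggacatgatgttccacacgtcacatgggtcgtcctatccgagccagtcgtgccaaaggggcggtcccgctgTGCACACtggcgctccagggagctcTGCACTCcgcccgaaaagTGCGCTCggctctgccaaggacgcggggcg
Slc30a1, chr1:191906531-191906830, plus strand: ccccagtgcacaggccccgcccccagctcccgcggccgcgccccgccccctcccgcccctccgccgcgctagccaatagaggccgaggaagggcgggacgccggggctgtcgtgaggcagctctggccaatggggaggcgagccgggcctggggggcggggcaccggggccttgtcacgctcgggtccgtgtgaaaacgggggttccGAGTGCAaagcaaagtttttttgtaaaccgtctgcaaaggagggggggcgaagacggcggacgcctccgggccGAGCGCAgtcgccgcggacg
Slc30a10, chr1:185454598-185454897, plus strand: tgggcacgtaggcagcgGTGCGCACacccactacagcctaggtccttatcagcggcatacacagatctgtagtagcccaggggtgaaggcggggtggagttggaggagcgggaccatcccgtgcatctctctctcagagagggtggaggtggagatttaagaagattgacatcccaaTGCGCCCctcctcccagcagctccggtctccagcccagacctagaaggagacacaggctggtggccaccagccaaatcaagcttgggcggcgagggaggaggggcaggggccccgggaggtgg
Atp7b, chr8:22060025-22060324, minus strand: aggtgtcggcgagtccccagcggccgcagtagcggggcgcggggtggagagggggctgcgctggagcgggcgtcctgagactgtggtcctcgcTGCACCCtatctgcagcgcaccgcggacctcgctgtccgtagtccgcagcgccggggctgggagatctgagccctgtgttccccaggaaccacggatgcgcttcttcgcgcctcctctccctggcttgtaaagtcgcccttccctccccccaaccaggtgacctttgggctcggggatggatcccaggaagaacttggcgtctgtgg

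The MRE core matched 3 times in the Mt1 window, 2 times in that of Slc30a1, 3 times in that of Slc30a10 and 1 time in that of Atp7b, and 2 of the Slc30a10 matches overlap each other on opposite strands. Counting positions from 0 at the RefSeq start, the Mt1 matches began at -23, 2 and 20. All positions rest on the annotated start, and sequence outside the windows was not searched. Such a core is short, and 25.7% of all 32851 promoter windows of this length held at least 1. The Mt2 window held 4 matches, 1 of 2 Slc39a8 windows held 1, and neither Cp window held any. The core of the antioxidant response element, TGACNNNGC on either strand, matched 1 time each in windows of Mt2, Slc30a1 and Slc39a8 and in 12.4% of all windows. The SOX core AACAAAG on either strand matched 1 time in a single member window, that of Cp, and in 5.85% of all windows. These are matches of letters and not measured binding.

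Among the members, Atp7b and Slc39a8 were higher and Slc30a10 was lower in the hepatocytes given Sox4. Of the 9 members, 8 passed the filter on low counts, 2 of these rose, 1 fell and 5 did not pass the threshold of 0.05. Over all genes tested, 29.0% were called higher and 26.0% were called lower, so the members' counts lie near the background and are no result about the members as a set. On the TMM scale the groups did not overlap for 4 members, where 63.0% of all genes tested had groups without overlap. The median log2 fold change was 0.03 over the 8 members tested and 0.04 over all genes tested. With library size alone in place of TMM the median over all genes moved to 0.51, and every change below shifts upward by a like amount. With that scaling, 6464 of the 12691 genes tested were called higher and 1630 lower.

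**Figure D1:**
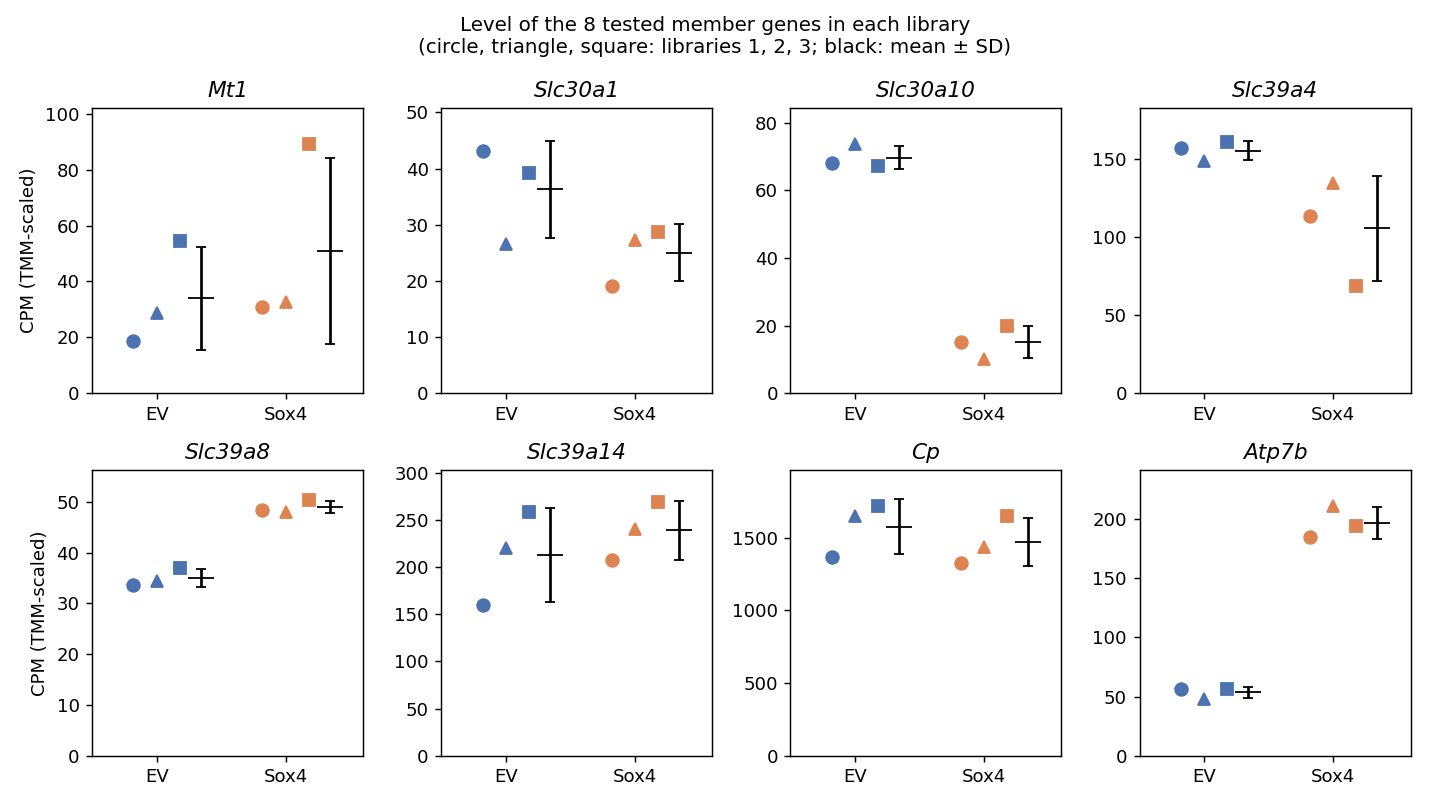
Level in CPM (TMM-scaled, linear axis from 0) of the 8 members tested in each library, with EV in blue, Sox4 in orange, a circle, triangle or square for libraries 1, 2 and 3, and the mean ± SD in black. On this scale the groups are apart for Slc30a10, Slc39a4, Slc39a8 and Atp7b, though for Slc39a4 not without TMM. For Mt1 the highest library of each group, 54.5 CPM in EV 3 and 89.3 CPM in Sox4 3, lies well above the others.

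Mt1 (chr8:94179082-94180327, plus strand, GRCm38), the main metallothionein counted here, was at 18.9, 28.7 and 54.5 CPM in EV 1, 2 and 3, and at 31.0, 32.5 and 89.3 CPM in Sox4 1, 2 and 3. The groups overlapped, as EV 3 was above Sox4 1 and Sox4 2, and each group held 1 library well above its other libraries. The means were 34.0 ± 18.4 CPM in EV and 50.9 ± 33.2 CPM in Sox4 (SD, n = 3), a log2 fold change of 0.58 with an SE of 0.67 (adjusted p = 0.447). Without Sox4 3 the value was -0.10 (adjusted p = 0.872), so its sign rested on that library. The tested genes most like Mt1 over the 6 libraries, by Pearson r of log2 CPM among the 9024 genes whose mean count reached 100, were Ccdc66 (0.98), Amn1 (0.98) and Kif5b (0.98), a description over 6 libraries of both groups.

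Mt2 (chr8:94172664-94173568, plus strand, GRCm38), the other widely expressed metallothionein of the liver, had 0, 0 and 4 counts in EV and 0, 0 and 1 in Sox4, and it did not pass the filter. At these totals a count of 0 allows up to 0.231 CPM in EV and up to 0.153 CPM in Sox4, for counting error only. Mt1 made up 100% of the counts of the pair in 4 libraries, 99.5% in EV 3 and 99.9% in Sox4 3, and with 4 libraries tied at 100% no test of this share could pass the threshold. In GENCODE M21 (GRCm38), 432 of the 588 exon bases of Mt2, or 73.5%, lie under exon of Gm45774, a gene on the opposite strand, which had 1 count in EV 1 and 0 in the other libraries. Only 156 Mt2 exon bases lie outside it, and the sources used here do not state the strand setting of the counting.

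**Figure D2:**
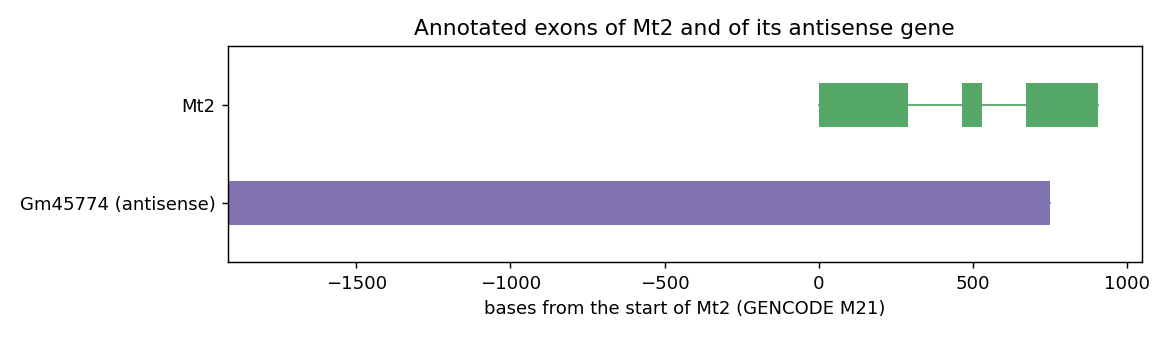
Exons of Mt2 (green boxes, joined by introns) and of the antisense gene Gm45774 (purple), in bases from the start of Mt2 in GENCODE M21. The single Gm45774 exon covers the first part of Mt2, including 432 of its 588 exon bases.

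Counts of other genes with this kind of overlap are given as a description only. Of 86 protein-coding genes with at least 70% of their exon bases under genes of the opposite strand alone, 64 (74.4%) had at most 4 counts in every library. The share was 43.7% of 14941 protein-coding genes that overlap no other gene, and 21.2% of 4612 with a smaller opposite-strand overlap. These classes were not matched for expression or length, and their build is not that of the counts. The shares therefore cannot separate an effect of counting from low expression. The part of the antisense gene in the Mt2 counts was not tested, and these counts were therefore not read as the level of Mt2. The other metallothioneins on the list were also near 0, with 2 Mt3 counts in Sox4 3 alone and no Mt4 count in any library. The exons of Mt1, Mt3 and Mt4 overlap no other annotated gene.

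Slc30a10 (chr1:185454848-185468762, plus strand, GRCm38), an exporter best known for moving manganese out of hepatocytes into bile, fell the most among the members. It was at 68.2, 73.6 and 67.2 CPM in EV, and at 15.2, 10.2 and 19.8 CPM in Sox4. All Sox4 libraries were far below all EV libraries, and the means were 69.7 ± 3.48 CPM and 15.1 ± 4.79 CPM (SD, n = 3). The log2 fold change was -2.21 with an SE of 0.28 (adjusted p = 2.96e-05), a level 0.217 times that of EV. It stayed past the threshold in every alternative tried, between -2.45 and -1.74, library size alone included.

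Slc30a1 (chr1:191906767-191913247, plus strand, GRCm38), the zinc exporter of the plasma membrane and a classic MTF1 target, was at 43.1, 26.5 and 39.2 CPM in EV and at 19.2, 27.3 and 28.6 CPM in Sox4. The groups overlapped through EV 2, which was below Sox4 2 and Sox4 3. The log2 fold change was -0.54 with an SE of 0.28 (adjusted p = 0.0525). The value without EV 2 was -0.73 (adjusted p = 0.0132) and the value without Sox4 3 was -0.64 (adjusted p = 0.0472), while with library size alone it was -0.07 (adjusted p = 0.788).

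Of the importers, Slc39a8 (chr3:135825279-135888572, plus strand, GRCm38), which takes up manganese and zinc, rose by a small and even amount. It was at 33.5, 34.4 and 36.9 CPM in EV and at 48.5, 48.1 and 50.3 CPM in Sox4, with no overlap between groups. The means were 34.9 ± 1.76 CPM and 49.0 ± 1.18 CPM (SD, n = 3), 1.40-fold higher in Sox4. The log2 fold change of 0.49 had an SE of 0.05 (adjusted p = 0.00266), and it stayed past the threshold in every alternative, between 0.44 and 0.96.

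Slc39a14 (chr14:70303469-70351425, minus strand, GRCm38), an importer of zinc, manganese and iron known to respond to inflammation, was at 159, 221 and 258 CPM in EV and at 208, 240 and 270 CPM in Sox4. The groups overlapped over most of their range. The log2 fold change was 0.17 with an SE of 0.23 (adjusted p = 0.459), -0.02 without EV 1, and 0.64 with library size alone (adjusted p = 0.0115). Its call therefore turned on the scaling of the libraries.

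Slc39a4 (chr15:76612383-76617384, minus strand, GRCm38), the zinc importer best known for uptake in the intestine, was at 157, 149 and 161 CPM in EV and at 114, 135 and 68.8 CPM in Sox4. The groups did not overlap on the TMM scale, and the Sox4 libraries were spread more widely (SD 33.7 CPM) than the EV libraries (SD 6.26 CPM). Relative to total counts without TMM, Sox4 2 was above every EV library. The log2 fold change of -0.56 with an SE of 0.29 stood at an adjusted p of 0.0507. It was -0.77 without Sox4 2 (adjusted p = 0.0155) and -0.09 with library size alone (adjusted p = 0.727).

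The copper members parted. Atp7b (chr8:21992785-22060305, minus strand, GRCm38), the copper-exporting ATPase whose loss causes Wilson disease, was at 56.4, 48.1 and 56.0 CPM in EV and at 185, 211 and 194 CPM in Sox4. The groups were far apart, with means of 53.5 ± 4.69 CPM and 197 ± 13.4 CPM (SD, n = 3). This was a 3.68-fold rise, a log2 fold change of 1.88 with an SE of 0.09 (adjusted p = 2.44e-06), and the alternatives ranged from 1.79 to 2.35.

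Cp (chr3:19957054-20009145, plus strand, GRCm38), which encodes ceruloplasmin, was at 1364, 1645 and 1719 CPM in EV and at 1327, 1436 and 1646 CPM in Sox4. The ranges overlapped almost wholly, and the log2 fold change was -0.10 with an SE of 0.14 (adjusted p = 0.61). With library size alone it turned to 0.37 (adjusted p = 0.0589), so no direction was assigned to it.

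**Figure D3:**
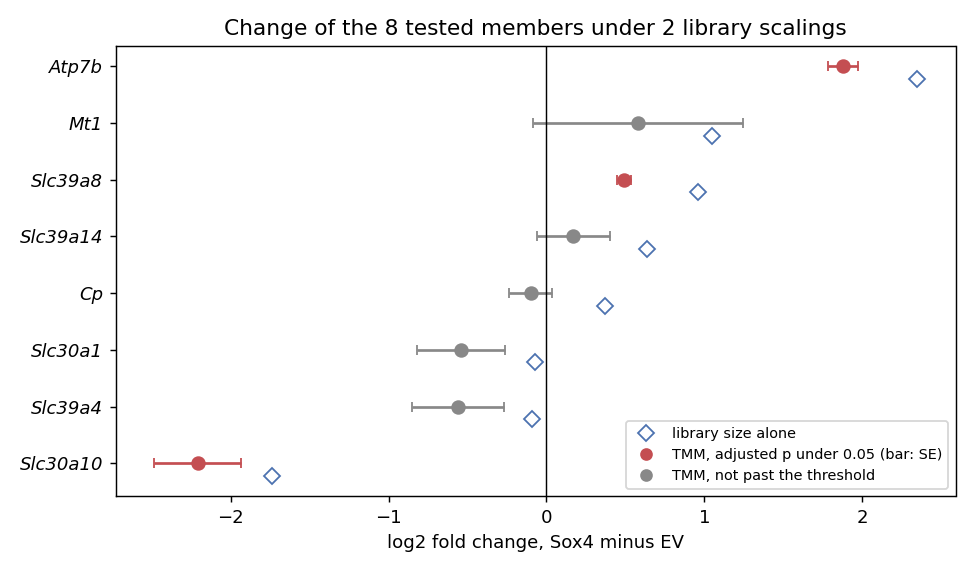
Log2 fold change (Sox4 minus EV) of the 8 members tested, with the TMM value as a filled circle with its SE (red where the adjusted p is under 0.05, grey otherwise) and the value under library size alone as an open blue diamond. Slc30a10, Slc39a8 and Atp7b keep their sign and their call under both scalings, and Cp changes sign.

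Ratios of counts within a library do not depend on its scaling, and these pairs were chosen after the values had been seen. Atp7b had 4.14, 2.92 and 3.26 counts per 100 Cp counts in EV, and 13.9, 14.7 and 11.8 in Sox4, so the ratio of the exporter to its copper acceptor was higher in all Sox4 libraries. Slc30a10 had 42.8, 33.4 and 26.0 counts per 100 Slc39a14 counts in EV, and 7.30, 4.27 and 7.36 in Sox4, an exporter and an importer that both handle manganese. Neither ratio overlapped between groups (two-sided exact permutation test, p = 0.1 for each, the smallest that 3 against 3 allows). Mt1 had 43.8, 108 and 139 counts per 100 Slc30a1 counts in EV, and 162, 119 and 312 in Sox4, with Sox4 2 inside the EV range (exact permutation p = 0.2). As the smallest p of this exact permutation test is 0.1, none of the 3 ratios could pass the threshold, adjusted or not.

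Levels were compared between genes per kilobase of annotated exon (CPM per kb, GENCODE M21), a length that joins all annotated transcripts and so may understate genes with long minor ones. In EV the order was Cp (165 CPM per kb), Slc39a4 (50.1), Mt1 (27.3), Slc39a14 (20.2), Slc30a10 (11.9), Atp7b (8.22), Slc30a1 (6.92) and Slc39a8 (4.56). The library ranges of Mt1 and Slc39a14 overlapped, and so did those of Atp7b and Slc30a1. In Sox4 the order was Cp (154 CPM per kb), Mt1 (40.9), Slc39a4 (34.0), Atp7b (30.3), Slc39a14 (22.7), Slc39a8 (6.39), Slc30a1 (4.77) and Slc30a10 (2.59), but the range of Mt1 (24.9 to 71.6) overlapped those of Slc39a4 (22.2 to 43.4), Atp7b (28.5 to 32.5) and Slc39a14 (19.7 to 25.6), and that of Slc39a4 overlapped those of Atp7b and Slc39a14, so these genes are not ordered beyond their spread. Slc30a10 moved from the fifth place to the last, below the range of every other member tested. Atp7b, which in EV overlapped Slc30a1, lay above the ranges of Slc39a14, Slc39a8 and Slc30a1 in Sox4.

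The rest of the zinc and copper pathway was read from 42 further genes. Of these, 33 were tested, 6 were higher, 11 were lower and 16 did not pass, with a median log2 fold change of -0.15 beside 0.04 over all genes. In all, 51.5% of them were called, near the 55.1% of all genes tested, so these counts too are no result about the pathway as a set. With library size alone 13 were higher and 3 were lower, beside 6464 higher and 1630 lower of all 12691 genes tested. Between the scalings, 11 of the 33 changed sign. The 6 higher calls were made under both scalings, but only 3 of the lower ones were, Ccs, Sod1 and Steap3. Of the 9 genes not tested, 8 had at most 3 counts in any library, and the other, Heph, a copper-dependent ferroxidase related to ceruloplasmin, had 0 in every EV library and 12, 7 and 28 in Sox4. Other annotated genes cover 91.8% of the exon bases of Sco2, which was not tested, and 80.7% of those of Slc39a7, which was. The counts of both are therefore uncertain as levels.

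Among copper genes, Atp7a (chrX:106027276-106124926, plus strand, GRCm38), the copper ATPase of most tissues other than the adult liver, rose with its relative Atp7b. It had 43, 56 and 42 counts in EV and 320, 468 and 356 in Sox4, a log2 fold change of 2.45 with an SE of 0.22 (adjusted p = 1.36e-05). Even so, its level in Sox4 was 2.21 CPM per kb, against 30.3 CPM per kb for Atp7b. Sod3, the secreted copper and zinc superoxide dismutase, had 3, 3 and 13 counts in EV and 21, 52 and 78 in Sox4, a log2 rise of 2.41 (SE 0.75, adjusted p = 0.0115). Steap2, a metalloreductase that reduces iron and copper, rose by 1.16 (SE 0.50, adjusted p = 0.042), with 516 counts in Sox4 3 against 194 and 210 in the other Sox4 libraries.

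Other copper genes were lower, and those with the largest changes are named first. Ccs, the copper chaperone that serves SOD1, was at 119, 113 and 105 CPM in EV and at 44.0, 28.1 and 35.7 CPM in Sox4 (log2 fold change -1.64, SE 0.19, adjusted p = 2.58e-05). Sod1 itself was at 610, 555 and 483 CPM in EV and at 295, 174 and 202 CPM in Sox4 (log2 fold change -1.30, SE 0.25, adjusted p = 0.000471). For both genes, every Sox4 library was below every EV library. Steap3, a metalloreductase of the iron and copper pathways, was at 59.6, 46.6 and 35.1 CPM in EV and at 14.5, 15.2 and 15.4 CPM in Sox4 (log2 fold change -1.65, SE 0.22, adjusted p = 5.76e-05). Cox11, a copper chaperone of cytochrome oxidase, was at -0.95 on the log2 scale, SE 0.38 and adjusted p = 0.0317, but its groups overlapped and 48.3% of its exon bases lie under Tom1l1 on the opposite strand. The remaining lower copper genes were Cutc, Xiap and Sco1 (log2 fold changes -0.81, -0.44 and -0.35), of which Xiap and Sco1 changed sign with library size alone. The main copper importer Slc31a1 was at 263 ± 15.7 CPM in EV and 276 ± 28.2 CPM in Sox4 (SD, n = 3), a log2 fold change of 0.07 (adjusted p = 0.672).

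Among the other ZnT exporters, 1 of 6 tested was higher and 1 was lower, and 2 of 10 other ZIP importers were higher and 3 were lower, where 29.0% of all genes were higher and 26.0% were lower. Slc30a3, known as the exporter that fills synaptic vesicles with zinc, had 4, 0 and 4 counts in EV and 36, 27 and 46 in Sox4 (log2 fold change 3.15, SE 0.63, adjusted p = 0.00235), a rise between very low levels. The lower one was Slc30a5, at -0.37 (adjusted p = 0.0353), which changed sign with library size alone. Of the ZIP importers, Slc39a6 had 29, 13 and 34 counts in EV and 159, 112 and 169 in Sox4 (log2 fold change 1.96, SE 0.43, adjusted p = 0.000834). Slc39a10, which pairs with Slc39a6 in zinc uptake, had 63, 48 and 62 counts in EV and 191, 283 and 216 in Sox4 (log2 fold change 1.43, SE 0.21, adjusted p = 0.000425).

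The lower importers were Slc39a1, Slc39a9 and Slc39a11, between -0.66 and -0.36, and the last pair changed sign with library size alone. About 21.8% of the 50-base stretches of Slc39a1 also occur in the pseudogene Slc39a1-ps, so its counts are uncertain. Mtf1, the zinc sensor that drives metallothionein genes, had 220, 222 and 315 counts in EV and 341, 322 and 346 in Sox4. Its log2 fold change was -0.15 (adjusted p = 0.429), and 0.32 with library size alone (adjusted p = 0.0972).

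**Figure D4:**
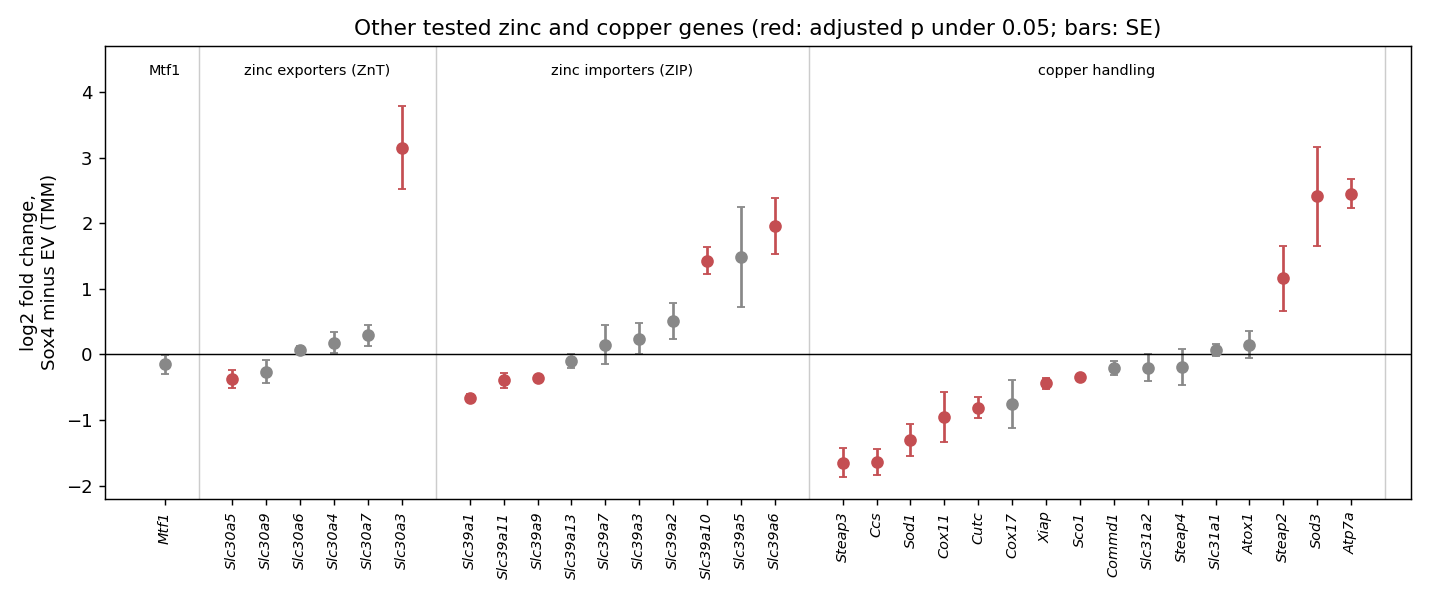
Log2 fold change (Sox4 minus EV, TMM) with SE of the 33 other zinc and copper genes tested, in columns for Mtf1, zinc exporters, zinc importers and copper handling, each sorted by value, with red points where the adjusted p is under 0.05. Slc30a3, Atp7a and Sod3 are at the top and Steap3, Ccs and Sod1 at the bottom.

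Metallothioneins, Slc39a14 and Cp are known to respond to inflammation, glucocorticoids or oxidative stress, and genes of these responses were read beside them. The shares over all genes, again, were 29.0% higher and 26.0% lower with TMM. With library size alone, 6464 of all 12691 genes tested were higher and 1630 lower. Of 19 acute phase genes tested, 16 were lower and 2 (Itih3 and Socs3) were higher, with a median log2 fold change of -1.17, and 14 were lower with library size alone. Hp, which encodes haptoglobin, fell by 2.09 on the log2 scale (adjusted p = 2.31e-05), while Cp was at -0.10 and Slc39a14 at 0.17. Of 10 glucocorticoid-responsive genes, 4 were lower and 1, Sgk1, was higher, with a median of -0.59, and the 5 called of 10 are near the 55.1% of all genes. Of 10 genes responsive to the oxidative stress factor NRF2, 7 were higher and 0 were lower at an adjusted p under 0.05 in edgeR, with a median of 1.48. Hmox1, the heme oxygenase of this response, rose by 2.32 (adjusted p = 1.12e-05) and Nqo1, a quinone reductase, by 2.04 (adjusted p = 1.59e-05). The part of these responses in the member values was not tested.

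Markers of other liver cells were low, and their sums differed between groups for some types. Counts of markers called higher are to be read beside the 29.0% of all genes called higher with TMM. Those with library size alone are to be read beside 6464 higher of all 12691 genes tested. The Kupffer cell markers had sums from 13.4 to 28.8 CPM in the EV libraries and from 29.1 to 67.8 CPM in the Sox4 libraries, and 4 of 9 tested were higher with TMM and 8 of 9 with library size alone. The stellate cell markers had sums from 10.9 to 48.9 CPM in the EV libraries and from 92.3 to 145 CPM in the Sox4 libraries, mostly Reln, with 3 of 5 tested higher (4 with library size alone), and the endothelial markers had sums from 20.3 to 27.5 CPM and from 20.97 to 42.5 CPM, with 3 of 8 higher and 1 lower (3 and 0 with library size alone). The cholangiocyte markers had sums from 27.7 to 43.8 CPM in the EV libraries and from 71.9 to 84.8 CPM in the Sox4 libraries, with 2 of 4 tested higher, Epcam and Spp1 (3 with library size alone), and with Krt19 at 0 counts in every EV library and at most 9 in Sox4. The paper reports modest EPCAM protein, at a later day, in hepatocyte-derived cells given Sox4. In these bulk libraries, Epcam counts from hepatocyte-derived cells and from cholangiocytes cannot be told apart. Leukocyte markers stayed at or under 4.29 CPM in sum, and the erythroid sum, nearly all Alas2, ranged from 92.9 to 126 CPM in the EV libraries and from 4.96 to 15.5 CPM in the Sox4 libraries, with no globin gene above 22 counts. The marker sums of Kupffer cells were 13.4, 25.0 and 28.8 CPM in EV 1, 2 and 3. Mt1 was at 18.9, 28.7 and 54.5 CPM in these libraries. In Sox4 1, 2 and 3 the sums were 29.1, 57.2 and 67.8 CPM, where Mt1 was at 31.0, 32.5 and 89.3 CPM. The part of these cells in the values of the members and of the other zinc and copper genes, such as Sod3 with its few counts, was not tested.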

How the data were processed

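Groups of 3 EV and 3 Sox4 hepatocyte libraries were taken from the titles. The authors aligned reads to GRCm39 with STAR 2.7.10b (version per the processing notes) and counted them with featureCounts 2.0.1, and the deposited table holds raw counts per gene. A further deposited table holds a normalized signal, the counts over DESeq2's median-of-ratios size factors, and recomputing those factors gave the same values. The annotation release, strand setting and treatment of multiply mapped reads are not given in the sources used here, so overlapping genes and near-identical copies are uncertain.

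The tools were edgeR 4.0.16, DESeq2 1.42.0 and limma 3.58.1 under R 4.3.3. Genes were kept by filterByExpr (minimum count 10, minimum total 15), which left 12691 of 24036 symbols with a count. TMM scaling was used, and the groups were tested with the robust quasi-likelihood F test with Benjamini-Hochberg adjustment over all genes tested and a threshold of 0.05. The procedure was tested on simulated data. SE values used log2 CPM with a prior count of 2, and a count of 3 was taken as the upper limit that 0 allows, for counting error only. The libraries of a group differed beyond sampling noise (chi-square per degree of freedom 17.6 to 62.7), so each counted as 1 replicate.

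The 9 members and all gene lists were chosen with earlier results of these data known. Named genes are the members, the 10 further zinc and copper genes past the threshold with the largest absolute change, the 3 genes most correlated with Mt1, Sox4, and genes of the context lists where described. The other genes that passed in the zinc and copper lists, as well as Slc31a1, Mtf1 and genes with an overlap, were added after their values were seen. Alternatives were library size alone, DESeq2 size factors, other count filters, DESeq2, limma-voom, limma on the deposited signal as log2(value + 1), a replicate block and each library left out. Gene positions and exon lengths come from GENCODE M21 (GRCm38) and promoter windows from RefSeq (GRCm38.p6), which is not the build of the counts, and they were used to describe genes only.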

Additional observations from a re-analysis of the deposited data

How the results depend on the processing

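Of 112 values of single members under the alternatives, 97 kept their direction and their side of the threshold, 12 passed it only in the alternative and 3 changed sign. The changes of Atp7b, Slc30a10 and Slc39a8 passed in each. With library size alone, 13 of the other zinc and copper genes were higher and 3 were lower, in place of 6 and 11, and Cp turned to 0.37. With that scaling 6464 of all 12691 genes tested were higher and 1630 lower. Of the genes called over all genes, 79.9% were higher in place of 52.7%. The number of members called lower, 1 in the results above, was 3 without a filter on low counts and 3 with DESeq2 (both adding Slc30a1 and Slc39a4), and 2 in both limma fits, on voom weights and on the authors' normalized signal (each adding Slc39a4). With each library left out in turn, members called lower ranged from 1 to 2, other zinc and copper genes called lower from 7 (without Sox4 3) to 9, the change of Mt1 from -0.10 to 1.08 and that of Slc39a14 from -0.018 to 0.31. The number of genes called over all genes, 6990, ranged from 5937 to 8094. The labels number the replicates of both groups 1 to 3. The deviations of same-numbered libraries correlated at 0.27, -0.09 and 0.13. So few mixed values cannot settle whether these libraries share more than a number. A replicate block gave 7362 calls, 2 members called lower, Slc39a4 among them, and a change of Mt1 of 0.54 (adjusted p = 0.00594). The cause of these differences was not tested. Depth limits the genes with few counts, such as Slc30a3, with at most 46 counts in any library.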
